A study of Ambystoma mexicanum with 8 samples.

Results

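The 200 axolotl transcripts described here were those with the deepest dip in reads at 3 and 6 days post amputation (dpa) among transcripts whose level at 14 dpa lay near that of the uninjured forelimb. They were chosen from 90099 assembled transcripts by their own read numbers. Reads were first scaled to the size of the library as counts per 1e+06 reads (cpm). A transcript was eligible if it had at least 300 reads at both 0 and 14 dpa and a cpm at 14 dpa between 0.5 and 2 times that at 0 dpa. Of 4532 transcripts with enough reads, 3195 were eligible, which is 3.55% of all transcripts. The dip score was the log2 ratio of the lower of the 0 and 14 dpa levels over the higher of the 3 and 6 dpa levels, with 0.5 cpm added to each, and the 200 highest scores were taken, 6.26% of those eligible. The shape of the profile is therefore given by the choice and is described here without a test.

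The study profiled forelimbs of the axolotl (*Ambystoma mexicanum*), a salamander that regrows lost limbs, to follow gene expression while a blastema forms. The groups were uninjured forelimb tissue, taken as 0 dpa, and regenerating tissue at 3, 6 and 14 dpa after an amputation through the middle of the zeugopod, the lower arm segment. Animals came from a stock centre colony, and neither a genotype nor an age nor a drug treatment other than anaesthesia is given for any stage. Each stage was 1 polyA+ mRNA library of RNA pooled from 4 or more tissues, so no spread between animals or libraries can be given, and no comparison between stages has a replicate check. All intervals below are exact 95% counting intervals (Clopper-Pearson) and cover counting error only.

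After amputation a wound epidermis covers the stump, and cells beneath it lose specialised features, divide and gather as a blastema, which later differentiates again into limb tissue. Skin, muscle, skeleton and nerves are all present again in the regrown axolotl limb. In bulk tissue, fewer cells of a type and less RNA in each cell cannot be told apart.

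The 4 libraries held between 15249786 and 36931886 reads on transcripts, and the 3 dpa library was the deepest, with 2.42 times the reads of the 0 dpa library. Fold changes below were scaled by TMM, which takes most transcripts as unchanged, and were read as higher or lower past 0.58 on the log2 scale, 1.49-fold. At 14 dpa over 0 dpa, 22209 of 67386 transcripts compared were lower past this threshold and 22322 higher, so that assumption is not secured here. TMM put the 3, 6 and 14 dpa fold changes over 0 dpa lower than plain cpm by 0.20, 0.50 and 0.46 on the log2 scale. The rule used plain cpm, so this shift touches every statement on return at 14 dpa. Of 41 skeletal muscle transcripts, which check the tissue, 40 of 40 compared were lower at 14 dpa than at 0 dpa. Their summed level was 3000, 771, 318 and 89.1 cpm at 0, 3, 6 and 14 dpa. None of the 41 was eligible, so none could be among the 200. Only 9 of these 41 were named from lists not selected on changes in these libraries. The 12 cell cycle transcripts summed to 147, 574, 387 and 827 cpm, and none of these was eligible either.

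Most of the dips were shallow. The score of the 200 transcripts ranged from 0.26 to 2.37 with a median of 0.47, which are dips of 1.20-fold, 5.18-fold and 1.38-fold. In all, 23 dipped by at least 2-fold, 69 by at least 1.5-fold and 131 by less than 1.5-fold. At the limit, the 5 transcripts just inside scored between 0.2575 and 0.2609 and the 5 just outside between 0.2555 and 0.2567. Among those just outside was *bccip*, which encodes a partner of the tumour suppressor BRCA2 in human cells, at 0.2558. Nothing in the scores sets the last transcripts taken apart from the first ones left out.

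A dip was not the more common shape among eligible transcripts. A score above 0 was found for 516 of the 3195 (16.2%), and 584 (18.3%) had the opposite profile, with both 3 and 6 dpa above both ends. Of 2-fold or deeper profiles, 23 were dips and 68 were peaks. With TMM-scaled cpm the eligible set itself changed, to 3439 transcripts. Among these the count of scores above 0 turned round, to 695 dips and 484 peaks, and at 2-fold it was 23 dips and 46 peaks.

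**Figure D1:**
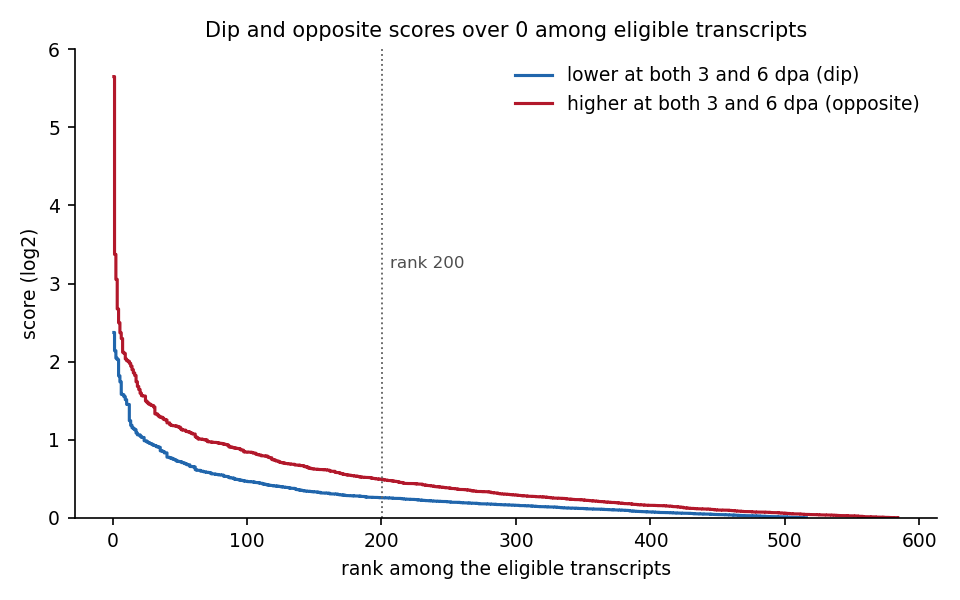
Scores above 0 of the eligible transcripts in falling order, with rank on the x axis and the log2 score on the y axis; blue is the dip score and red the score of the opposite profile, and the dotted line marks rank 200. The blue line lies at 0.26 at rank 200, where the red line lies at 0.49.

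Summed over the 200 transcripts, 2.98%, 1.31%, 1.59% and 2.95% of all reads at 0, 3, 6 and 14 dpa came from them. An unnamed transcript, comp15425_c0_seq1, gave 211866, 182192, 135549 and 217592 of these reads, and without it the shares were 1.59%, 0.813%, 0.882% and 1.78%. By plain reads the summed share was thus lowest at 3 dpa with or without it, and the transcript itself dipped by 1.65-fold. These shares were not scaled by TMM, and the stage of the lowest level depended on the scaling, as given below. The median level of a member was 40.6, 19, 19.5 and 38.1 cpm over the 4 stages.

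On the TMM scale the median log2 fold change of the 200 was -1.12 at 3 dpa over 0 dpa, -1.31 at 6 dpa over 0 dpa and -0.54 at 14 dpa over 0 dpa. Over all transcripts compared, these medians were 0.17, 0.06 and 0.05. At 3 dpa 188 of the 200 were lower past the threshold, where 28.6% of all transcripts with at least 10 reads over the pair were. At 6 dpa all 200 were lower, where 30.8% of all transcripts were. The rule used both contrasts, so nothing is read from these counts.

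Return by 14 dpa was partial for many of them by TMM. At 14 dpa 94 of the 200 were still lower than at 0 dpa past the threshold, where 33% of all transcripts were. The other 106 lay within it, where 33.9% of all did. The choice bounded the ratio of 14 to 0 dpa, so all transcripts are not a like group for these counts. Of the 2995 other eligible transcripts, which met the same bounds, 867 (28.9%) were lower and 2128 lay within the threshold. The counts of the 200 rested on the scaling, with 22 lower and 10 higher by total reads, and 40 lower and 6 higher by the upper quartile. Of the 67386 transcripts compared, 16402 were lower and 31770 higher by total reads, and 18629 and 27816 by the upper quartile. Counting intervals of the 14 dpa over 0 dpa fold change lay under 0 for 174 of the 200, held 0 for 15 and lay above 0 for 11. They also lay under 0 for 1697 of the 2995 other eligible transcripts. By plain cpm the picture was closer to a return, with 81 transcripts above their 0 dpa level against 17 by TMM, and 62 within 0.9 to 1.1 times it. Between the later stages, 135 were higher at 14 than at 6 dpa past the threshold and none was lower. Of all transcripts 24.9% were higher and 27.4% lower, and of the other eligible ones 9.22% and 14.2%. The choice set 14 dpa above 6 dpa for every member, so nothing is read from these counts.

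**Figure D2:**
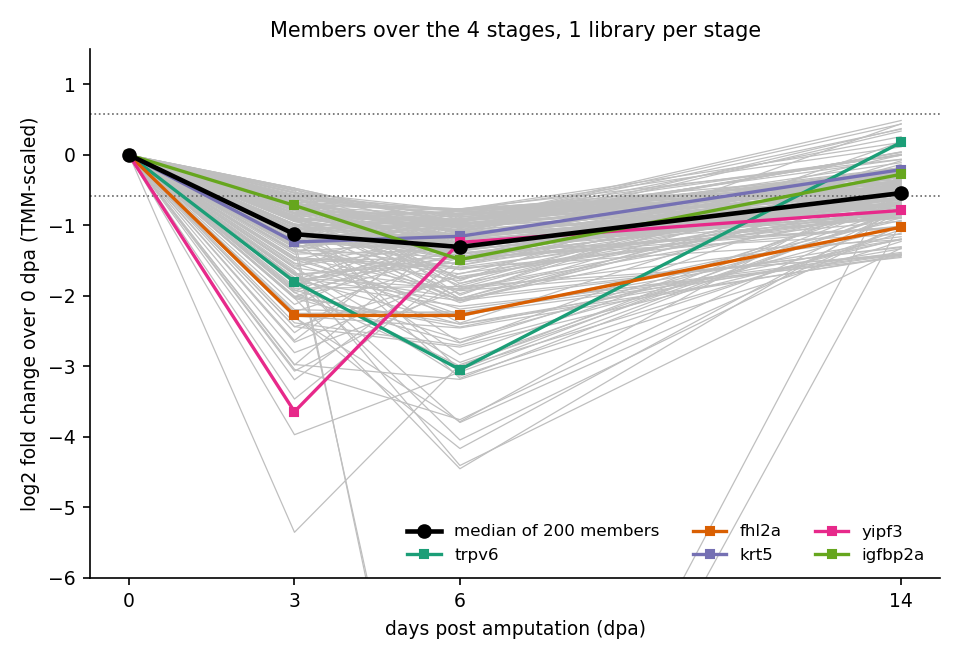
Log2 fold change over 0 dpa (TMM-scaled, y axis) of each of the 200 transcripts (grey) at 0, 3, 6 and 14 dpa (x axis), with their median in black and 5 named transcripts in colour; dotted lines mark 0.58 in either direction. The median stood at -1.12, -1.31 and -0.54 at 3, 6 and 14 dpa, and 2 transcripts listed at 0 reads at 6 dpa run off the lower edge.

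The stage of the lowest level depended on the scaling. By TMM 57 transcripts were lowest at 3 dpa and all others at 6 dpa. By plain cpm it was 110 at 3 dpa and 90 at 6 dpa. By TMM 28.5% of the 200 were lower at 3 than at 6 dpa, against 35.5% of the other eligible transcripts, and by cpm 55.0% of the 200, against 53.8%. The 23 deepest were lowest at 6 dpa in 20 cases by TMM and in 16 by cpm. Of these 23, 17 were still lower at 14 than at 0 dpa by TMM, against 47% of the 200, 33% of all transcripts and 28.9% of the other eligible ones. That count was taken by TMM only, which put 14 dpa fold changes 0.46 lower than plain cpm on the log2 scale. By total reads 22 of the 200 were lower, so no weaker return of the deepest dips is read from it.

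The 10 transcripts of highest score had no name in the lists used here except *trpv6*. The highest, comp34675_c0_seq1, had 414, 140, 54 and 404 reads at 0, 3, 6 and 14 dpa. It was low in both middle libraries although the 3 dpa library was the deepest. Its log2 fold change was -3.04 (-3.33 to -2.76) at 3 dpa, -3.76 (-4.20 to -3.35) at 6 dpa and -0.78 (-0.98 to -0.57) at 14 dpa.

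The others differed in which middle stage was lowest. Reads of comp40033_c1_seq1 numbered 428, 29, 96 and 410 over the 4 stages, and its log2 fold change was -5.35 (-5.96 to -4.82) at 3 dpa and -2.98 (-3.31 to -2.65) at 6 dpa. This was a profile lowest at 3 dpa. By contrast, comp33577_c0_seq1 had 1055, 721, 85 and 1053 reads and comp15708_c0_seq1 had 2469, 1399, 243 and 2377, with log2 fold changes at 6 dpa of -4.45 (-4.79 to -4.13) and -4.17 (-4.36 to -3.98). Both were lowest at 6 dpa and at 14 dpa were still at -0.74 and -0.80, past the threshold. Also lowest at 6 dpa were comp15310_c0_seq1, with 672, 380, 86 and 903 reads, and comp39749_c0_seq1, with 529, 360, 147 and 549. At 14 dpa comp15310_c0_seq1 was at -0.315, within the threshold, and comp39749_c0_seq1 at -0.69, past it. The remaining ones were comp34535_c0_seq1 with 510, 181, 99 and 364 reads, comp41153_c0_seq12 with 422, 75, 88 and 410, and comp41161_c0_seq7 with 707, 378, 192 and 588.

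Names came from supplementary lists of the study, held in part, which pair assembled transcripts with zebrafish or human genes by predicted homology. They named 25 of the 200 directly (12.5%, against 16% of the other eligible transcripts), for 23 different names. Another 11 had a named transcript only elsewhere in their component, the group of transcripts that the assembly treats as a gene, and 164 had no name. Of the 25, 23 stood in a list of transcripts that the study had selected as lower in these libraries, and none in the matching list of higher ones, so being lower is no independent evidence for a named transcript. All 25 were lower at 3 and 6 dpa past the threshold. At 14 dpa 14 were still lower by TMM, against 47% of the 200 and 33% of all transcripts. By plain cpm 9 of the 25 were above their 0 dpa level at 14 dpa, against 2 by TMM. From 6 to 14 dpa 20 were higher, against 67.5% of the 200, and the choice set that direction.

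**Figure D3:**
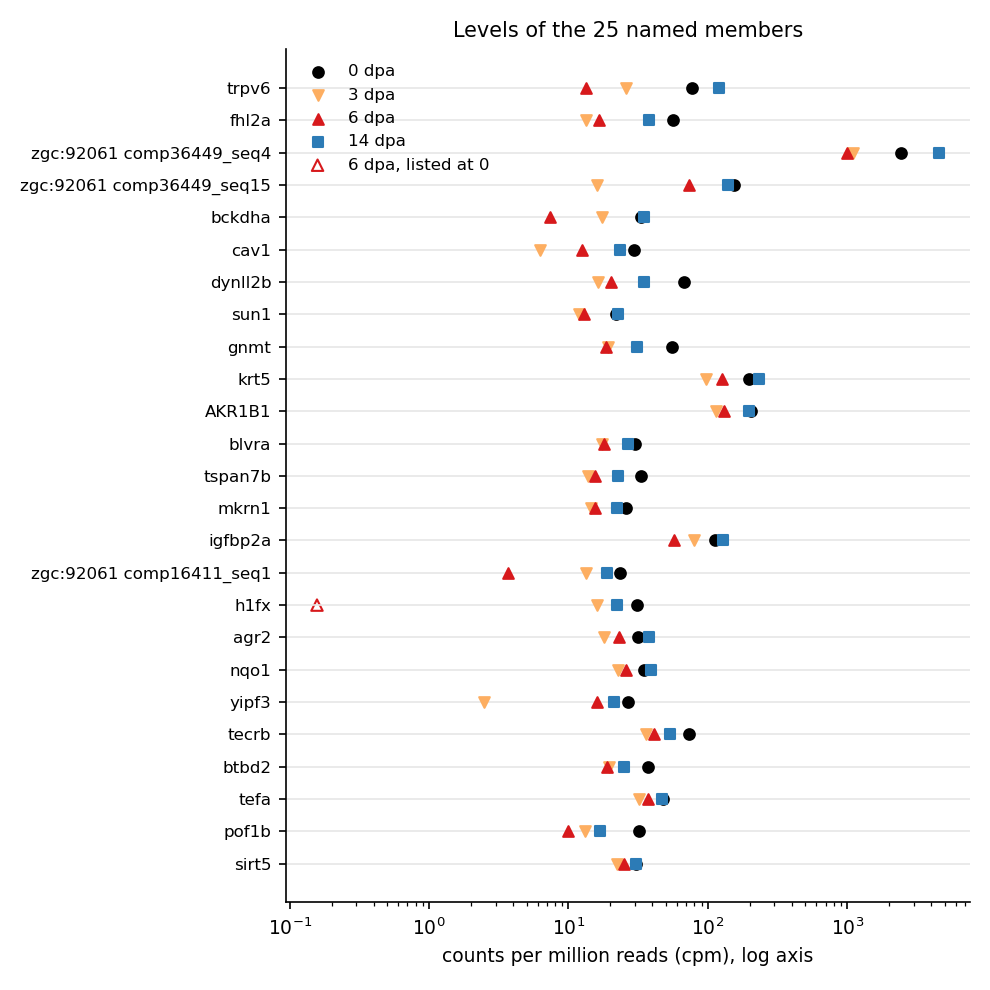
Level in cpm (log axis) of the 25 named transcripts, 1 row each in order of dip score, with a marker for each of the 4 stages; the open triangle marks *h1fx* at 6 dpa, listed at 0 reads and drawn at the level of 3 reads. In every row both middle stages lie left of both end stages, and the gap is widest for *trpv6* at the top. Levels of different transcripts cannot be ranked here, since no length was used.

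Among transcripts of epithelial genes, *trpv6*, which encodes a calcium channel of absorbing epithelia, had 1183, 948, 253 and 2239 reads at 0, 3, 6 and 14 dpa. It was the deepest named dip, 2.98-fold. The log2 fold change was -1.80 (-1.92 to -1.68) at 3 dpa, -3.04 (-3.25 to -2.85) at 6 dpa and 0.18 (0.08 to 0.28) at 14 dpa, so that it was one of 2 named transcripts above 0 dpa at 14 dpa by TMM. Reads of *krt5*, the keratin of basal epidermal cells, numbered 3009, 3565, 2388 and 4354. Its levels were 197, 96.5, 125 and 234 cpm, lower in both middle libraries and above the 0 dpa level at 14 dpa. By TMM, its log2 fold changes were -1.24 (-1.30 to -1.17) at 3 dpa, -1.15 (-1.23 to -1.08) at 6 dpa and -0.21 (-0.28 to -0.14) at 14 dpa. For *agr2*, a protein disulfide isomerase of secretory epithelia whose family in newts includes a secreted factor of the regenerating limb, reads were 479, 667, 442 and 707, and the dip was 1.35-fold. The transcript of *pof1b*, an actin-binding protein of epithelia, had 490, 489, 190 and 314 reads and was still lower at 14 dpa, by -1.38 (-1.59 to -1.18).

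These epithelial values stood beside lower levels of many other epidermal transcripts. Of 26 transcripts in a list of epidermal genes, 3 were eligible, and *krt5* alone of these was among the 200. In that list 22 of 26 compared were lower at 3 dpa, 21 of 25 at 6 dpa and 19 of 25 at 14 dpa, where 28.6%, 30.8% and 33% of all transcripts were. Only 2 of the 26 were named from lists not selected on changes in these libraries, so these counts are no independent evidence of a direction. The summed level was 696, 390, 480 and 617 cpm. This sum includes *krt5* itself, at 197, 96.5, 125 and 234 cpm, which was chosen for its dip, so the sum is not independent of the choice. The part of epidermal cell number in the *krt5* profile was not tested.

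The 7 metabolic enzymes were all lower at 3 and 6 dpa, where 94% and 100% of the 200 were. At 14 dpa 3 of the 7 were still lower by TMM, against 47% of the 200 and 33% of all transcripts. All 7 were lowest at 6 dpa by TMM, but 5 of them were lowest at 3 dpa by cpm. The deepest, *bckdha*, a subunit of the complex that commits branched-chain amino acids to breakdown, had 505, 645, 141 and 643 reads over the 4 stages. It was low at 6 dpa above all, by -2.66 (-2.94 to -2.39), against -1.13 (-1.30 to -0.96) at 3 dpa and -0.39 (-0.56 to -0.22) at 14 dpa. Reads of *gnmt*, a methyltransferase that uses up S-adenosylmethionine, were 845, 704, 356 and 573. Its return was incomplete, with a log2 fold change at 14 dpa of -1.30 (-1.46 to -1.15).

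Enzymes of oxidant and aldehyde handling dipped by less. The aldose reductase *AKR1B1* had 3118, 4220, 2503 and 3662 reads and a dip score of 0.58. The quinone reductase *nqo1* had 532, 837, 494 and 727 reads with a dip of 1.34-fold, and *blvra*, which reduces biliverdin to bilirubin, had 455, 643, 341 and 496 with a dip of 1.48-fold. Summed over their components, *blvra* was at 0.195 at 3 dpa, and *nqo1* was at -0.086 and -0.13 at 3 and 6 dpa, within the threshold. In all these cases the reads at 3 dpa exceeded those at 0 dpa, and the level at 3 dpa was lower only relative to the depth of that library. The same held for *tecrb*, an enzyme of very long chain fatty acid synthesis (1118, 1339, 779 and 1001 reads), and for *sirt5*, a mitochondrial deacylase (463, 829, 473 and 571 reads), whose dip of 1.22-fold was the shallowest with a name. In a list of 21 detoxification transcripts 14 of 20 were lower at 3 dpa, 19 of 19 at 6 dpa and 14 of 19 at 14 dpa. Of all transcripts 28.6%, 30.8% and 33% were. Only 3 of the list were eligible, and none of these was among the 200. Of the 21, 6 were named from lists not selected on changes in these libraries, so these counts are not independent of the direction either.

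Of 6 transcripts for cytoskeletal and membrane proteins, 5 were still lower at 14 dpa by TMM. This held for 47% of the 200, 33% of all transcripts and 28.9% of the other eligible ones. By total reads, only *dynll2b* of the group was lower past the threshold at 14 dpa, at -0.945, and *fhl2a* lay within it at -0.569. The LIM domain protein *fhl2a*, of a family that links actin and integrins to transcription in muscle and other cells, had 862, 496, 314 and 708 reads. It was the only transcript of its component and was low to the same degree at both middle stages, by -2.28 (-2.44 to -2.12) at 3 dpa and -2.28 (-2.47 to -2.09) at 6 dpa, with -1.02 (-1.17 to -0.88) at 14 dpa. The skeletal muscle list above was also lower at all 3 stages, and its part in the *fhl2a* profile was not tested. A dynein light chain, *dynll2b*, had 1021, 599, 386 and 646 reads with a similar shape, at -2.25 (-2.40 to -2.10), -2.22 (-2.40 to -2.05) and -1.40 (-1.55 to -1.26) at 3, 6 and 14 dpa. Both had fewer reads at 3 dpa than at 0 dpa in a library 2.42 times as deep.

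The caveolae protein *cav1* had 449, 231, 240 and 432 reads, and the Golgi membrane protein *yipf3* had 408, 91, 305 and 395. Both were lowest at 3 dpa under either scaling, *yipf3* by -3.64 (-3.99 to -3.31) and *cav1* by -2.44 (-2.67 to -2.21). For *sun1*, an inner nuclear membrane protein that ties the nucleus to the cytoskeleton, reads were 334, 439, 246 and 422 and the 14 dpa fold change was within the threshold at -0.40 (-0.61 to -0.19). The tetraspanin *tspan7b* had 509, 510, 293 and 423 reads and was at -1.01 (-1.20 to -0.82) at 14 dpa.

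Of the remaining named transcripts, *igfbp2a*, which encodes a binding protein of insulin-like growth factors, had 1724, 2928, 1089 and 2383 reads. It was lower at 6 dpa by -1.48 (-1.59 to -1.37), against -0.72 (-0.80 to -0.63) at 3 dpa, and was within the threshold at 14 dpa at -0.27 (-0.36 to -0.18). The ubiquitin ligase *mkrn1* had 394, 533, 293 and 416 reads, *btbd2*, a BTB domain protein, had 567, 726, 360 and 466, and *tefa*, a PAR bZIP transcription factor with a daily rhythm in zebrafish, had 733, 1186, 704 and 872. Their dips were 1.44-fold, 1.27-fold and 1.27-fold. Of 10 transcripts in a list of circadian and glucocorticoid-linked genes, *tefa* alone was eligible, and it was among the 200. At 6 dpa 6 of 9 compared were lower, where 30.8% of all transcripts were. But only 2 of the 10 were named from lists not selected on such changes. The time of day of sampling is not stated for any stage.

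The name *zgc:92061*, for which no role is given here, stood on 3 of the 200 transcripts, in 2 components. One, comp36449_c0_seq4, had 37024, 40266, 18961 and 84117 reads and was above 0 dpa at 14 dpa by 0.44 (0.42 to 0.46), but at -0.57 when reads were summed over its component. Another of the same component, comp36449_c0_seq15, had 2353, 595, 1405 and 2610 reads and was lowest at 3 dpa. A single transcript of another component, comp16411_c0_seq1, had 357, 496, 70 and 352 reads and was lowest at 6 dpa, by -3.17 (-3.56 to -2.80). The name thus covered 3 profiles of different shape.

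At 6 dpa 2 of the 200 transcripts were listed at 0 reads. The deposited value there can stand for 0 or 1 read, and 3 reads were taken as the floor. For *h1fx*, a linker histone, reads of comp15875_c0_seq2 numbered 476, 587, 0 and 411. With 3 reads in place of 0, it was 280-fold lower at 6 than at 0 dpa by TMM, and 145-fold lower than at 14 dpa. On the log2 scale, its counting interval reached up to -7.83 for 6 over 0 dpa and down to 6.87 for 14 over 6 dpa. The unnamed comp38782_c0_seq2 had 371, 420, 0 and 556 reads. By the same measure it was 218-fold lower at 6 than at 0 dpa and 196-fold lower than at 14 dpa, with interval limits of -7.47 and 7.31. In both cases another transcript of the same component had reads at 6 dpa. For *h1fx* that transcript had 1649, 2243, 1219 and 902 reads, a profile without a return, and for the unnamed pair it had 312, 372, 453 and 177.

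This difference between a transcript and its component was common. Of the 200, 101 were alone in their component and 99 (49.5%) had other transcripts beside them, against 36.6% of the other eligible transcripts and 26.5% of all transcripts. RSEM, with which the reads were counted, divides reads that fit several transcripts between them by estimate, so the numbers of transcripts in a component depend on each other. When reads were summed over the component, the dip score of the 99 had a median of 0.0026, against 0.49 for the transcripts themselves. The summed score was above 0 for 50 of the 99 and reached the limit of the 200 for 28. Of the 13 with a 2-fold dip among them, 2 kept a 2-fold dip as a component.

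**Figure D4:**
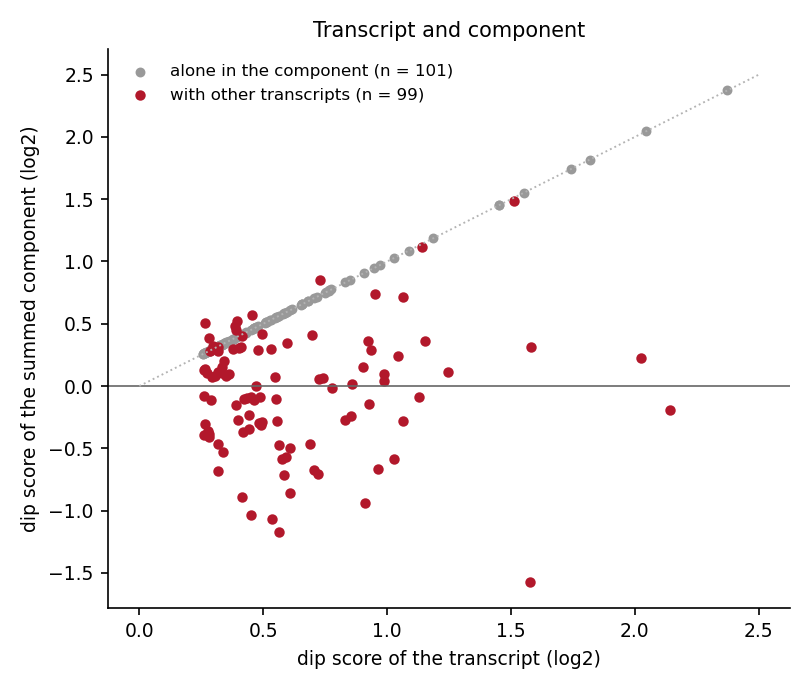
Dip score of each of the 200 transcripts (x axis, log2) against the dip score of the summed reads of its component (y axis, log2), in grey for the 101 transcripts alone in their component and in red for the 99 with others. Grey points lie on the dotted line of equal scores by construction, and 49 of the red points lie at or below 0.

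The dip was not general among the other transcripts of these components. There were 397 of them, and of 342 compared at 6 dpa over 0 dpa, 121 (35.4%) were lower past the threshold and 138 (40.4%) higher, where 30.8% of all transcripts were lower and 32.9% higher. Taken as 1 sum beside each of the 99 transcripts, the rest of the component was lower in 28 of 94 cases, higher in 26 and between in 40. The dip score of the rest was above 0 beside 12 of the 99 transcripts. These 99 lay in 97 components. For comp36449_c0 and comp41170_c0 the rest was taken beside each chosen transcript and still held the other chosen one. Without the member, no component dipped by 2-fold.

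The *trpv6* component had the lowest summed score among the 200, at -1.58. Its 22 other transcripts together had 15, 3495, 4231 and 1747 reads at 0, 3, 6 and 14 dpa. Of these, 18 were listed at 0 at both 0 and 3 dpa and had reads at 6 dpa, and 16 of the 18 were at 0 again at 14 dpa. The transcript comp41280_c0_seq6 alone had 0, 3387, 409 and 1718 reads. The reads of the component as a whole were therefore higher at 3 and 6 dpa than at 0 dpa, by 0.41 and 1.08 on the log2 scale, where the transcript chosen was lower.

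Other components differed in other ways. The second transcript of *bckdha* had 751, 1787, 1272 and 1231 reads, and its log2 fold change was -0.06 at 6 dpa, where the chosen one was at -2.66. For *yipf3* the second transcript had 1526, 3393, 1216 and 1054 reads and was at -0.33 at 3 dpa, where the chosen one was at -3.64. For *cav1*, 4 of 5 other transcripts had reads at 0 and 3 dpa and were listed at 0 at 6 and 14 dpa, and the component as a whole did not return. For *tecrb* the second transcript had 448, 369, 113 and 254 reads. It was low at 3 and 6 dpa like the chosen one but still at -1.56 at 14 dpa, where the chosen one was at -0.90, and the summed component scored 0.52, against 0.39 for the transcript.

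**Figure D5:**
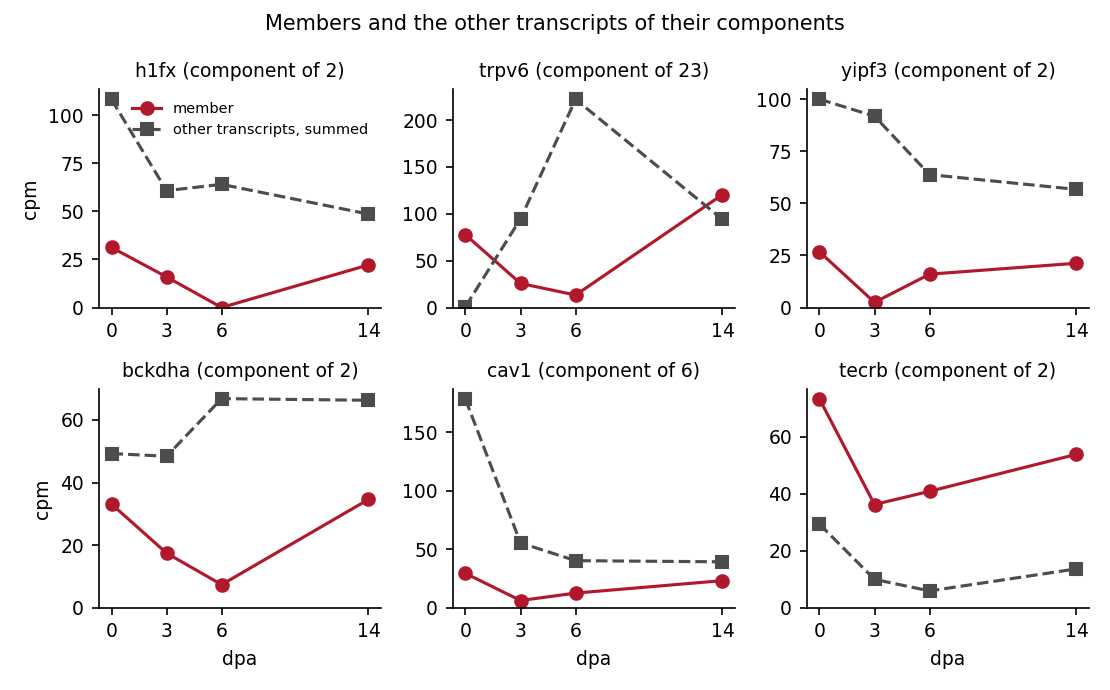
Level in cpm (y axis, from 0, on a scale of its own in each panel) at 0, 3, 6 and 14 dpa (x axis) for 6 named transcripts of the 200 (red, solid) and for the summed other transcripts of their components (grey, dashed). The grey line is low at 3 and 6 dpa for *tecrb* but at 14 dpa stays further below its 0 dpa level than the red one, and it peaks at 6 dpa for *trpv6*, and is lowest at 14 dpa for *h1fx*, *yipf3* and *cav1*.

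Of the 10 deepest dips, 3 further ones stood in components of another shape. The 17 other transcripts of the comp41153_c0 component together had 3878, 1676, 615 and 360 reads, and 13 of them were at 0 at 14 dpa, the stage at which the chosen transcript was back at 410 reads. The 3 others of comp40033_c1 had 329, 1296, 713 and 1166 reads together, within the threshold at 3 and 6 dpa (0.50 and 0.30) and higher at 14 dpa (1.08), while the chosen one had its low point at 3 dpa. The other transcripts of comp41161_c0 together had 2442, 3993, 2231 and 2348 reads and were lower at 3, 6 and 14 dpa (-0.77, -0.95 and -0.80). That component had a summed score of 0.31, against 1.58 for the chosen transcript. The deepest of all, comp34675_c0_seq1, was alone in its component, as were 10 of the 23 transcripts with a 2-fold dip.

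The 11 transcripts named only through their component showed the same mixture. The component named *cbl*, a ubiquitin ligase of receptor signalling, held a chosen transcript of 418, 361, 53 and 350 reads and others that summed to 390, 3399, 1702 and 1154. That of *sort1*, a sorting receptor, held a chosen transcript of 651, 995, 464 and 737 reads and another of 1340, 2059, 1905 and 1820. In both, the chosen transcript was lowest at 6 dpa. The others were higher at 6 dpa for *cbl*, at 1.30, and within the threshold for *sort1*, at -0.31. In the component named *dmd*, the gene of the muscle protein dystrophin, the chosen transcript carried most reads, 1429, 2478, 1261 and 2403, beside 90, 466, 294 and 239, and the summed score was 0.29. Further components were named *ier3ip1*, *hgs*, *mgrn1b*, *pkd2*, *smarcd3b*, *tead1a* and *ube2g2*, and their summed scores ranged from -0.67 to 0.12.

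No sequence of the 200 transcripts was used here. Sequences were at hand for the miRNAs of the matching small RNA libraries, to which the same rule was applied. MicroRNAs pair with target mRNAs mainly through the seed, bases 2 to 8 from the 5′ end, which is in capitals in the 5 of highest score.
axo-miR-19b-3p: tGTGCAAAtccatgcaaaactga
axo-miR-19d-3p: tGTGCAAAcccatgcaaaactga
axo-miR-10b-1-5p: tACCCTGTagaaccgaatttgt
axo-miR-30e-2-5p: tGTAAACAtcctcgactggaagc
axo-miR-148-3p: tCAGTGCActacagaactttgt

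Both leading miRNAs carry the same seed. Of all miRNAs counted, 33 were eligible, 9 had a dip score above 0 and 8 the opposite, and 1 dipped by at least 1.5-fold. Reads of miR-19b-3p numbered 2403, 800, 1346 and 3794 at 0, 3, 6 and 14 dpa, a dip of 1.74-fold, and those of miR-19d-3p numbered 4663, 1361, 1712 and 4285, a dip of 1.48-fold. The 3 dpa library was the shallowest of the small RNA libraries, with 901281 reads. In cpm miR-19b-3p was lowest at 3 dpa and miR-19d-3p at 6 dpa. The order rested on the scaling. With TMM-scaled cpm miR-19d-3p led with a score of 0.68, and miR-19b-3p had 0.08, while neither miR-10b-1-5p nor miR-148-3p was among the 9 with a score above 0.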

How the data were processed

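PolyA+ mRNA and small RNA libraries of axolotl forelimb, 4 of each kind and 1 per stage, were analysed. For the mRNAs, adapters and low-quality ends were clipped by the authors (Trimmomatic), all stages were assembled without a genome (Trinity), and RSEM gave the read number of each assembled transcript. Versions of these tools are not given in the sources used here. The deposited values are named log2 cpm but are log2 values of whole read numbers, with a largest relative deviation from a whole number of 3.47e-09. They were turned back into reads. An entry of 0 (40414 entries) can be 0 or 1 read, was taken as 1 in choosing the transcripts, as their definition has it, and as 0 in fold changes. Of 93299 lines for mRNAs, 3200 were repeats and were dropped. In the small RNA table, 7 error marks of a spreadsheet were read as 0 reads.

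Fold changes used TMM factors with the 0 dpa library as the reference (trims of 30% and 5%), a prior count of 0.125 and at least 10 reads over the 2 libraries compared. TMM factors were 0.818, 0.942, 1.157 and 1.122 at 0, 3, 6 and 14 dpa. With 1 library per stage no test was run. Depth was 15249786, 36931886, 19049794 and 18581310 reads, so 3 reads, the limit that a count of 0 allows, were 0.197, 0.0812, 0.157 and 0.161 cpm. All steps ran under Python 3.11.15 (pandas 2.3.3, NumPy 2.4.6, matplotlib 3.10.9, SciPy 1.17.1) and were tested on simulated data.

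Named were all transcripts paired directly with a name, those named through their component, the 10 of highest score, the 5 on each side of the limit, as a range with any name, and the 5 miRNAs of highest score. A transcript named through its component is not reported here. The transcripts and the gene lists were chosen with earlier results of these data known, and the groups by role were drawn up after the values were seen. The following lists not given in the results had no transcript among the 200, with their summed cpm at 0, 3, 6 and 14 dpa. The nerve and Schwann cell and vessel wall lists had no eligible transcript, so none of theirs could be chosen. The other lists had from 1 to 58 eligible transcripts. Skeletal and connective matrix genes summed to 5560, 21600, 17800 and 9360, respiration and citrate cycle genes to 14400, 10900, 12600 and 15600, and blood and haem genes to 64, 187, 238 and 98.1. Nerve and Schwann cell genes summed to 1520, 148, 101 and 34.8, leukocyte genes to 475, 829, 562 and 101, and vessel wall genes to 373, 50.1, 36 and 27.4. Ribosomal protein genes summed to 53900, 60000, 38800 and 46200, translation factor genes to 17200, 18700, 13100 and 14600, and lipid and sterol genes to 172, 211, 159 and 402. Alternatives tried were other scalings and prior counts, a threshold of 1, component sums, other read minimums and other forms of the choice.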

Additional observations from a re-analysis of the deposited data

How the results depend on the processing

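With 1 library per stage, no value has an error between animals, and the order of transcripts near the limit rests on score differences of under 0.01. No paired analysis was possible because each stage has a single library. Direction was kept by the median of the 200 transcripts at 3, 6 and 14 dpa under every alternative run, but its size was not. At 3 and 6 dpa the choice had set the direction, so keeping it there is no check. Scaled by total reads, the medians were -0.92, -0.81 and -0.084, and 168 transcripts lay within the threshold at 14 dpa. Scaled by the upper quartile, the medians were -1.17 at 6 dpa, -0.28 at 14 dpa and 0.93 for 14 over 6 dpa. With the 3 dpa library as the TMM reference, the median at 6 dpa was -1.21. Summed over components, the medians were -0.87 at 3 dpa, -1.06 at 6 dpa and 0.51 for 14 over 6 dpa, *trpv6* turned to 0.41 at 3 dpa and 1.08 at 6 dpa, *blvra* turned to 0.195 at 3 dpa, and comp36449_c0_seq4 (*zgc:92061*) turned to -0.57 and *nqo1* to 0.11 at 14 dpa. By total reads *bckdha*, *sun1*, *krt5*, *igfbp2a*, *agr2*, *nqo1* and *sirt5* turned to between 0.017 and 0.28 at 14 dpa, and by the upper quartile *krt5* and *agr2* to 0.053 and 0.082. At a threshold of 1, 115 transcripts were lower at 3 dpa and 173 lay within it at 14 dpa.

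Which transcripts were chosen depended on the form of the choice. Of the 200, 117 were chosen again with TMM-scaled cpm, 69 with a minimum of 100 reads, 49 with a minimum of 1000 reads, and 130 were in a component chosen when reads were summed over components. With 100 transcripts taken, the first 100 remained by construction. Of the 12 in components with a 2-fold dip, none remained when the transcript itself was left out, which removes the 10 alone in their component. Over all transcripts, those past the threshold numbered 17492, 16785 and 17826 at 3, 6 and 14 dpa where every library had at least 10 reads, against 51659, 44149 and 44531, since fewer transcripts were compared. For the 25 named transcripts, 347 of 350 values at 3 and 6 dpa under the alternatives were still lower than at 0 dpa. All 25 were chosen for lower levels at both stages, and the alternatives used the same reads, so this count is no check of direction.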
